A study of Homo sapiens with 24 samples.

Results

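The genes described here encode 9 secreted glycoproteins of the extracellular matrix: THBS1, THBS2, EDIL3, FSTL1, CCN4 (older symbol WISP1), SPARC, TNC, FN1 and POSTN. They were taken by name out of 22395 genes measured by array, and each was represented by the probe set that names that symbol alone and has the highest mean over all arrays, which was the single such probe set for each of the 9. The genes were chosen by name with earlier results of these data in view, and THBS1, EDIL3 and FSTL1 were selected on their measured differences between groups. The tests below therefore describe the size of a difference against the spread and are no independent evidence for it. By the RefSeq annotation all 9 are protein-coding, on chromosomes 15 (THBS1), 6 (THBS2), 5 (EDIL3 and SPARC), 3 (FSTL1), 8 (CCN4), 9 (TNC), 2 (FN1) and 13 (POSTN).

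Human breast cancer cells of 2 established lines were studied. SUM159 lacks hormone receptors and HER2 amplification and has a mesenchymal character, whereas T47D expresses the oestrogen receptor and has a luminal character. Each line received 5 µM of the small molecule ID8, an inhibitor of DYRK kinases, or the solvent DMSO, for 72 hours, and was then sorted into Aldefluor+ and Aldefluor- cells, which have high and low aldehyde dehydrogenase activity with the gate set on a tube in which the enzyme was inhibited. The submitters take Aldefluor+ cells to be cancer stem cells. The 8 groups are SUM159 ID8 Aldefluor+, SUM159 ID8 Aldefluor-, SUM159 DMSO Aldefluor+, SUM159 DMSO Aldefluor-, T47D ID8 Aldefluor+, T47D ID8 Aldefluor-, T47D DMSO Aldefluor+ and T47D DMSO Aldefluor-, with 3 arrays in each, 1 from each of 3 separate experiments per line. For each sort, the cells of 3 flasks of one treatment were combined. SUM159 medium contained insulin and hydrocortisone and T47D medium did not. Untreated and unsorted cells were not analysed here.

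Matricellular proteins are secreted into the extracellular matrix but serve mainly as signals rather than as scaffold. They bind integrins, heparan sulfate proteoglycans and growth factors, and so change how cells attach, move and respond to ligands. In breast tumours much of this protein is made by stromal fibroblasts, and carcinoma cells with mesenchymal features make some of it themselves. Thrombospondin-1 (THBS1) is best known for inhibiting blood vessel growth through CD36 and CD47 and for activating latent TGF-beta. EDIL3, also called DEL-1, binds integrin alpha-v beta-3 through an RGD motif. FSTL1 is a follistatin-like protein that binds bone morphogenetic proteins, and CCN4 is a Wnt-induced member of the CCN family.

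The regions around the transcription starts of THBS1, its paralogue THBS2, EDIL3 and FSTL1 are shown because they hold the regulatory letters nearest to the genes whose transcripts moved, with THBS2 as the family member that did not pass the test. Each sequence runs from 250 bases before the start to 50 bases after it, 5′ to 3′ on the gene's own strand, from RefSeq on GRCh38.p14. Capitals mark matches on either strand to GGAATG (the core bound by TEAD factors), TGANTCA (AP-1), GGGCGG (the GC box bound by Sp1), CCAAT and TATAAA. For EDIL3 the first of the 2 listed windows is given.
THBS1: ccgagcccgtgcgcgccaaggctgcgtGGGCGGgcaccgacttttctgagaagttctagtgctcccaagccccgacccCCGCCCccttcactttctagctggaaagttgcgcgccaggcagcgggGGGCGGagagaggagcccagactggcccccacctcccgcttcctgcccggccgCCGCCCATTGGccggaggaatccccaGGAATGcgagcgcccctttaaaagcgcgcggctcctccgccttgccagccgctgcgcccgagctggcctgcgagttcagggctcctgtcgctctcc
THBS2: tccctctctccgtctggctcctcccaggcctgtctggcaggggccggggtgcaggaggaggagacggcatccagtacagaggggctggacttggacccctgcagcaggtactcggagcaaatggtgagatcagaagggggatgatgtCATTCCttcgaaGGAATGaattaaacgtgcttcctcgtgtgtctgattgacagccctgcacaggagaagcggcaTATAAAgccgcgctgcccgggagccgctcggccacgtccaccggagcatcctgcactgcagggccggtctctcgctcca
EDIL3: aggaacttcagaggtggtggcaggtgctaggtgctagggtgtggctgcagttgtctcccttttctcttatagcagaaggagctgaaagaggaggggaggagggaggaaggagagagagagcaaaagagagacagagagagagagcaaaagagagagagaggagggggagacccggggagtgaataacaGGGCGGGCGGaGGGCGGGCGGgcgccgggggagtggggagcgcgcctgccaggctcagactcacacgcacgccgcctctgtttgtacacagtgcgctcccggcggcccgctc
FSTL1: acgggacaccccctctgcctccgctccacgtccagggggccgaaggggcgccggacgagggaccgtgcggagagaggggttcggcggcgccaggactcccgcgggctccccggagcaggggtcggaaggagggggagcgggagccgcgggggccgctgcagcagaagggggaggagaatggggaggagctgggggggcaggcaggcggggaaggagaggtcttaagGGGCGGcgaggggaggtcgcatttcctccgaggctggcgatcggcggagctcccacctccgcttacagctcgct

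These windows lie at chr15:39580829-39581128 (plus strand) for THBS1, chr6:169253797-169254096 (minus strand) for THBS2, chr5:84384831-84385130 (minus strand) for EDIL3 and chr3:120450943-120451242 (minus strand) for FSTL1. THBS1 holds 4 GC boxes, a CCAAT box that begins 66 bases before the start directly beside the nearest GC box, and GGAATG 46 bases before the start. THBS2 holds GGAATG at 103 and 91 bases before the start, on opposite strands, and TATAAA at 29 bases. EDIL3 holds 4 matches to GGGCGG, between 62 and 47 bases before the start, in 2 overlapping pairs, and FSTL1 holds 1, at 24 bases. Among 27305 windows of the same length, GGAATG occurs in 14%, TGANTCA in 7.76%, GGGCGG in 44.6%, CCAAT in 35.7% and TATAAA in 12%. Of the 8 members examined for matches, GGAATG also occurs in SPARC and TGANTCA in POSTN. No window of CCN4 is reported here. A match describes letters and not a bound site.

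Values are log2 signals that the authors had normalised and adjusted for batch, so levels are compared within a probe set and mainly within a line. Line differences were small in these adjusted values: the largest difference between the line means of any gene was 1.18 on the log2 scale. Each experiment used 1 line only, so line and experiment cannot be told apart. An adjusted level does not show how strongly either line expresses a gene. SUM159 markers were still higher in SUM159 for 10 of 10 genes, and T47D markers higher in T47D for 11 of 11. Markers of cells that a culture should lack were low, with means below 2 for 5 of 6 fibroblast genes, 4 of 4 endothelial genes and 6 of 6 leukocyte and platelet genes, against 49.0% of all genes. The array medians lay between 1.516 and 1.569, and the array of experiment 4 in SUM159 DMSO Aldefluor+ cells had the narrowest spread, with an interquartile range of 2.053 where the other arrays had 2.168 to 2.328. Where values without that array change a call, they are given beside the result. The number of arrays limits the precision.

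Of the 9 members, 7 had a mean of at least 2 over the 24 arrays. THBS1 had a mean log2 signal of 8.22, at percentile 98.4 of all genes, and FN1 had 7.04, at percentile 95.0. FSTL1 (5.07), TNC (4.50) and SPARC (4.05) followed, and CCN4 (2.61) and EDIL3 (2.36) lay near the middle of the array. THBS2 (1.55) and POSTN (1.28) had low signals, at which probe set background weighs most. These ranks compare probe sets and not transcript numbers, and after the adjustment they do not give the level in either line. Between the lines, after the adjustment, the mean log2 signal of TNC was 4.96 ± 0.122 for SUM159 and 4.04 ± 0.0853 for T47D (SD over the 12 arrays of a line). That of FN1 was 7.43 ± 0.0588 for SUM159 and 6.65 ± 0.135 for T47D. For the other 7 members the line means differed by at most 0.39, with SUM159 the higher or level. The line means were not tested.

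The first question is what ID8 does to these genes. In SUM159, EDIL3 was higher with ID8 in both fractions, THBS1 was higher in Aldefluor- cells and FSTL1 was lower in Aldefluor+ cells. In T47D, FSTL1 was higher with ID8 in Aldefluor+ cells. The test was limma on all 24 arrays with the experiment as a block, adjusted by the Benjamini-Hochberg method over all 22395 genes, and a gene is called at an adjusted p under 0.05. All p-values of this fit rest on the spread left between arrays after group and experiment means were taken out, pooled over SUM159 and T47D. Some results below also carry an adjusted p from a fit without the block. As the values had already been adjusted for batch, that fit counts degrees of freedom that are gone. Its p-values are too small, and they show how a call depends on the block without lending it support. The arrays of a group come from separate experiments on the same culture line. In sorted bulk samples, fewer cells that carry a transcript and less of it per cell cannot be told apart.

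In SUM159 Aldefluor+ cells, ID8 called 2 of 9 members, EDIL3 up and FSTL1 down, against 0.241% of all genes. In SUM159 Aldefluor- cells 2 of 9 were called, EDIL3 and THBS1, both up, against 0.277%. In T47D Aldefluor+ cells 1 of 9 was called, FSTL1, up, against 0.375%. In T47D Aldefluor- cells limma called 0 of 9, with 0.0179% of all genes called and 1479 genes at an unadjusted p under 0.05, and THBS1 was called there without the block (adjusted p = 0.00874) and with a trended, robust prior (adjusted p = 0.0144). Averaged over fractions, 3 of 9 members were called in SUM159 (EDIL3, THBS1 and FSTL1) against 0.688%, and 1 of 9 in T47D (FSTL1) against 0.505%. Since the members were listed with these contrasts known, the counts describe the list and nothing is read from their excess over all genes.

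The arrays of ID8 and DMSO cells did not overlap for 4 of 9 members in SUM159 Aldefluor+ cells (18.7% of all genes) and for 7 of 9 in SUM159 Aldefluor- cells (18.9%). The same held for 2 of 9 in T47D Aldefluor+ cells (21.2%) and 2 of 9 in T47D Aldefluor- cells (16.5%). The median log2 difference over the 9 members was 0.19 and 0.44 in SUM159 Aldefluor+ and Aldefluor- cells, where all genes had -0.00847 and -0.0106. It was 0.08 and 0.06 in T47D Aldefluor+ and Aldefluor- cells, where all genes had -0.00948 and -0.000652.

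**Figure D1:**
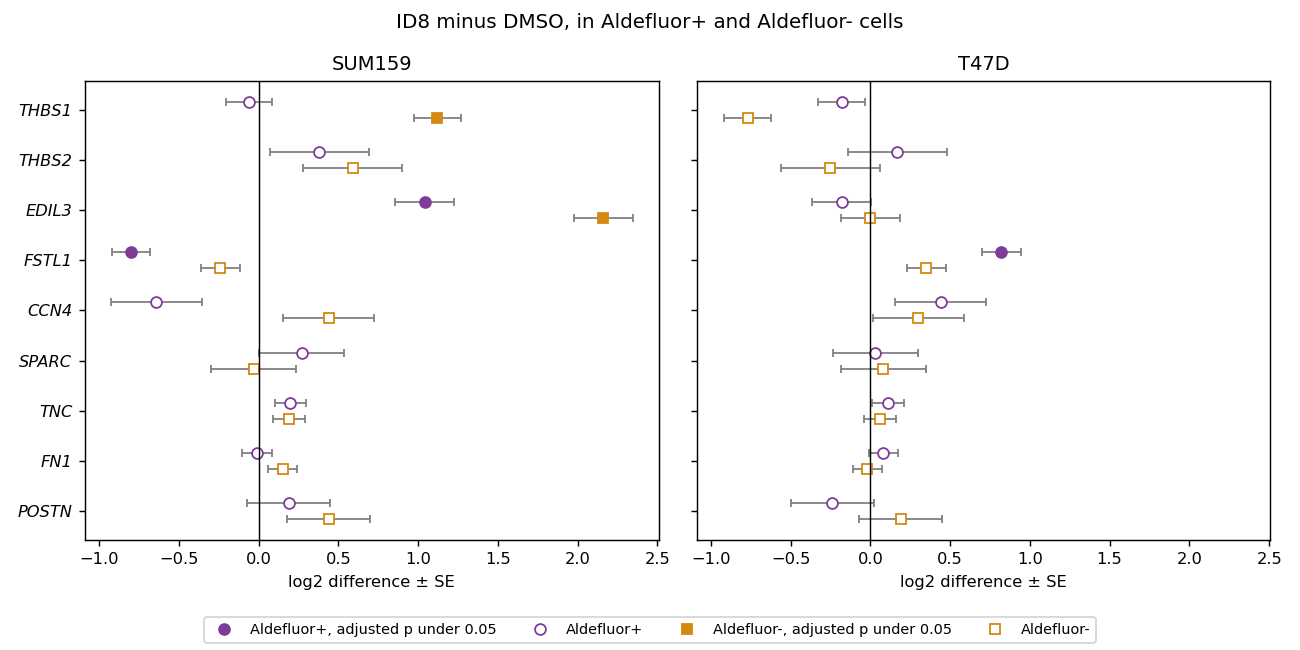
ID8 minus DMSO for the 9 members, as log2 difference ± SE from limma (3 arrays per group). The left panel shows SUM159 and the right panel T47D, circles are Aldefluor+ cells, squares Aldefluor- cells, and filled symbols have an adjusted p under 0.05. EDIL3 stands farthest from 0, at 2.16 in SUM159 Aldefluor- cells, while FSTL1 lies at -0.80 in SUM159 and 0.82 in T47D Aldefluor+ cells.

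The second question concerns the sorted fractions. With ID8 in SUM159, CCN4 and EDIL3 were lower in Aldefluor+ cells, 2 of 9 members against 0.201% of all genes. In SUM159 with DMSO limma called 0 of 9, against 0.0223%, with 1780 genes at an unadjusted p under 0.05, and THBS1 was called without the block (adjusted p = 0.0094) and with a trended, robust prior (adjusted p = 0.00864). In T47D, FSTL1 was higher in Aldefluor+ cells with ID8, 1 of 9 against 0.366%, and THBS1 was lower in Aldefluor+ cells with DMSO, 1 of 9 against 0.152%. Averaged over treatments, 1 of 9 was called in SUM159 (CCN4, down) against 0.219%, and 2 of 9 in T47D (FSTL1 up, THBS1 down) against 0.875%.

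The arrays of the fractions did not overlap for 5 of 9 members in SUM159 with ID8 (17.0% of all genes), 4 of 9 in SUM159 with DMSO (17.3%), 3 of 9 in T47D with ID8 (19.5%) and 4 of 9 in T47D with DMSO (19.1%). The median difference over the members was -0.22 in SUM159 with ID8 and 0.09 with DMSO, against -0.00567 and -0.00584 over all genes, and -0.07 in T47D with DMSO, against 0.00332. Each of these comparisons shares a group with an ID8 comparison, so their values are not independent of those above.

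**Figure D2:**
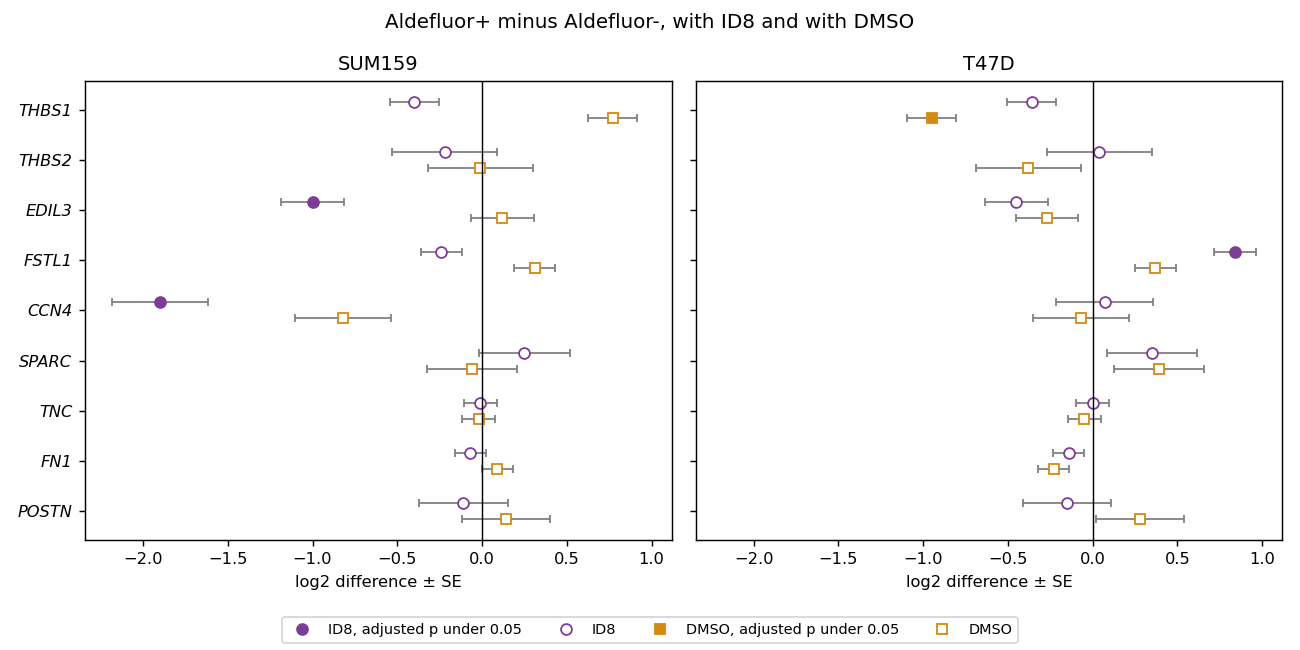
Aldefluor+ minus Aldefluor- for the 9 members, as log2 difference ± SE from limma (3 arrays per group). Circles are ID8-treated cells, squares DMSO-treated cells, and filled symbols have an adjusted p under 0.05. CCN4 lies lowest, at -1.90 in SUM159 with ID8, and THBS1 lies at 0.77 in SUM159 and -0.95 in T47D with DMSO.

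EDIL3, a secreted integrin ligand, had the largest change with ID8 among the members. In SUM159 Aldefluor- cells it had 3.80, 3.98 and 3.47 with ID8, against 1.70, 1.54 and 1.54 with DMSO (log2 signal, experiments 2, 3 and 4). In SUM159 Aldefluor+ cells it had 2.68, 2.48 and 3.10 with ID8, against 1.72, 1.67 and 1.73 with DMSO. All 6 ID8 arrays lay above all 6 DMSO arrays of the line. The difference was 2.16 ± 0.184 in Aldefluor- cells (SE, 4.46-fold, adjusted p = 1.66e-05) and 1.04 ± 0.184 in Aldefluor+ cells (2.06-fold, adjusted p = 0.029), with 3 of 3 experiments higher in each. Both DMSO means lay below 2, so these folds depend on the probe set's background.

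In T47D, EDIL3 had 2.18, 1.85 and 1.96 in Aldefluor+ cells with ID8, against 1.91, 2.39 and 2.22 with DMSO (experiments 5, 6 and 7). The Aldefluor- cells of T47D had 2.63, 2.35 and 2.36 with ID8, against 2.27, 2.40 and 2.66 with DMSO. The groups overlapped in both fractions. The ID8 effect in Aldefluor- cells was larger in SUM159 than in T47D by 2.16 ± 0.261 (adjusted p = 0.00162), a comparison in which 2 of 9 members, EDIL3 and THBS1, were called against 0.0670% of all genes. Without experiment 7 the adjusted p of this EDIL3 difference was 0.0533. In Aldefluor+ cells the difference between the lines was 1.22 ± 0.261 and not called (adjusted p = 0.0593), but it was called without the block (adjusted p = 0.00725), with a trended, robust prior (0.0467) and among genes with a mean of at least 2 (0.0296).

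With ID8, the SUM159 fractions differed in EDIL3. In Aldefluor+ cells, relative to Aldefluor- cells, it fell by 1.00 ± 0.184 on the log2 scale (1.99-fold, adjusted p = 0.0437), and with DMSO the difference was 0.12 ± 0.184. The change of the ID8 effect between the fractions was -1.11 ± 0.261 and did not pass (adjusted p = 0.347). In that comparison 0 of 9 members were called by limma, against 0.00447% of all genes, with 1582 genes at an unadjusted p under 0.05. The ID8 call in Aldefluor- cells was kept without each experiment in turn. The calls for ID8 in Aldefluor+ cells and between the fractions were lost without any of experiments 2, 3 and 4 (adjusted p between 0.145 and 0.25, and between 0.0577 and 0.536) and without the array of narrowest spread (adjusted p = 0.0749 and 0.05).

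THBS1, an inhibitor of angiogenesis and activator of latent TGF-beta, moved with ID8 in Aldefluor- cells in opposite directions in the lines. In SUM159 Aldefluor- cells it had 8.53, 8.78 and 8.91 with ID8, against 7.46, 7.74 and 7.67 with DMSO, a difference of 1.12 ± 0.146 (2.17-fold, adjusted p = 0.00181). In T47D Aldefluor- cells it had 8.16, 8.04 and 8.11 with ID8, against 8.93, 8.81 and 8.90 with DMSO, a difference of -0.77 ± 0.146 that was not called (adjusted p = 0.112). In neither line did the ID8 and DMSO arrays of this fraction overlap, and the change was alike in the 3 experiments of T47D, at -0.77, -0.77 and -0.78. The difference between the lines was 1.89 ± 0.206 (adjusted p = 0.000505). Averaged over fractions, ID8 shifted THBS1 by 0.53 ± 0.103 in SUM159 (adjusted p = 0.0225), a call lost without experiment 2, 3 or 4 (adjusted p = 0.0806 to 0.221) and without the array of narrowest spread (adjusted p = 0.0616). In T47D this average was -0.48 ± 0.103 and not called (adjusted p = 0.0522), but it was called without the block (adjusted p = 0.00589), with a trended, robust prior (0.00654) and among genes with a mean of at least 2 (0.0245). The SUM159 Aldefluor- call was lost without experiment 3 (adjusted p = 0.0594) and without experiment 4 (adjusted p = 0.0879), and the difference between the lines was kept without each of the 6 experiments in turn.

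In Aldefluor+ cells THBS1 showed overlapping groups. SUM159 Aldefluor+ cells had 8.44, 8.33 and 8.24 with ID8, against 8.58, 8.34 and 8.27 with DMSO, and T47D Aldefluor+ cells had 7.86, 7.80 and 7.58 with ID8, against 7.68, 8.11 and 7.99 with DMSO. Thus with DMSO the fractions stood apart in both lines, again in opposite directions: Aldefluor+ minus Aldefluor- was 0.77 ± 0.146 in SUM159 (adjusted p = 0.117) and -0.95 ± 0.146 in T47D (1.94-fold, adjusted p = 0.00889). These fraction differences differed by 1.73 ± 0.206 between the lines (adjusted p = 0.00214), and THBS1 was 1 of 9 members called in that comparison, against 0.0670% of all genes. With ID8 the fraction difference was -0.40 ± 0.146 in SUM159 and -0.36 ± 0.146 in T47D, neither called (adjusted p = 0.484 and 0.466). The SUM159 DMSO Aldefluor- and T47D DMSO Aldefluor- groups enter both the ID8 and the fraction differences, so these results share arrays. The T47D call was lost without experiment 5, 6 or 7, with adjusted p between 0.0905 and 0.294. Averaged over treatments the fraction difference in T47D was -0.66 ± 0.103 (adjusted p = 0.00431), lost without experiment 5 or 7 (adjusted p = 0.0969 and 0.0924).

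Within SUM159 the order of THBS1 levels was ID8 Aldefluor-, DMSO Aldefluor+, ID8 Aldefluor+ and DMSO Aldefluor-, with means of 8.74, 8.39, 8.34 and 7.62. Neighbouring groups overlapped except the last, which lay below the rest. Within T47D the order was DMSO Aldefluor-, ID8 Aldefluor-, DMSO Aldefluor+ and ID8 Aldefluor+, with means of 8.88, 8.10, 7.92 and 7.75, and the first group lay apart from the others. The change of the ID8 effect between fractions was -1.17 ± 0.206 in SUM159 (adjusted p = 0.12) and 0.60 ± 0.206 in T47D (adjusted p = 0.705). In SUM159 it was called without the block (adjusted p = 0.00887) and with a trended, robust prior (adjusted p = 0.00547). In the T47D comparison limma called 0% of the 22395 genes and 0 of 9 members, 1328 genes had an unadjusted p under 0.05, and the fit without the block called 4 genes.

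**Figure D3:**
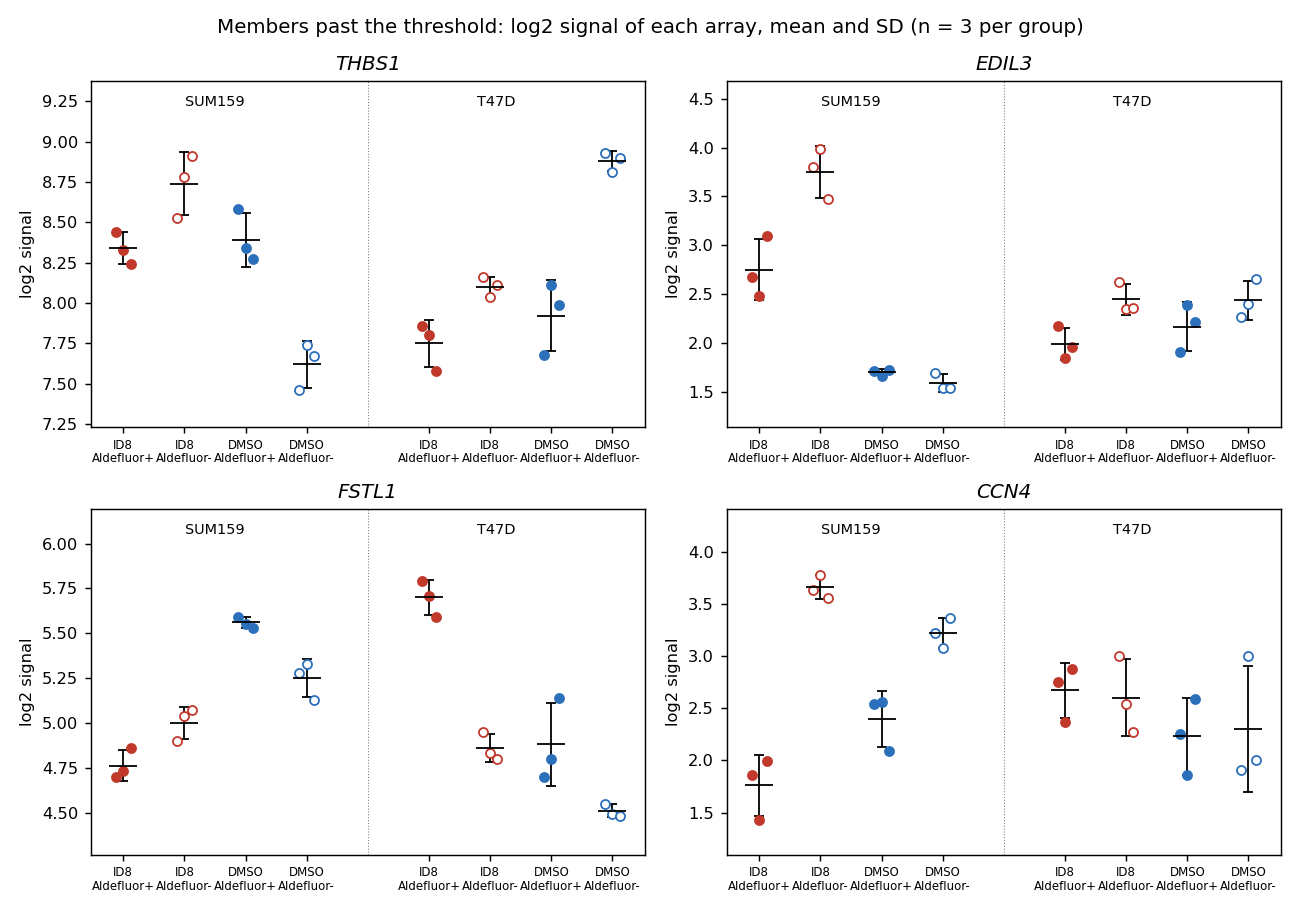
Log2 signal of THBS1, EDIL3, FSTL1 and CCN4 on each array, with SUM159 left and T47D right of the dotted line. Points are arrays (red for ID8, blue for DMSO, filled for Aldefluor+, open for Aldefluor-), and bars give mean and SD (n = 3). EDIL3 is raised in both SUM159 ID8 groups, at 2.75 and 3.75, and the SUM159 DMSO Aldefluor- group of THBS1 lies lowest of its line, at 7.62.

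FSTL1, a follistatin-like protein of the SPARC family, changed with ID8 in Aldefluor+ cells of both lines and in opposite directions. In SUM159 Aldefluor+ cells it had 4.70, 4.73 and 4.86 with ID8, against 5.59, 5.55 and 5.53 with DMSO. In T47D Aldefluor+ cells it had 5.79, 5.71 and 5.59 with ID8, against 4.70, 4.80 and 5.14 with DMSO. The groups did not overlap in either line. The difference was -0.80 ± 0.122 in SUM159 (1.74-fold lower, adjusted p = 0.0112) and 0.82 ± 0.122 in T47D (1.77-fold higher, adjusted p = 0.00774). The effects differed by -1.62 ± 0.172 between the lines (adjusted p = 0.00108), and FSTL1 was 1 of 9 members called there, against 0.330% of all genes. That difference was kept without each of the 6 experiments. The SUM159 call was lost without experiment 2, 3 or 4 (adjusted p = 0.245, 0.169 and 0.0753) and the T47D call without experiment 5 or 6 (adjusted p = 0.196 and 0.159).

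In Aldefluor- cells FSTL1 ran the same way at a smaller size. SUM159 Aldefluor- cells had 4.90, 5.04 and 5.07 with ID8, against 5.28, 5.33 and 5.13 with DMSO, and T47D Aldefluor- cells had 4.95, 4.83 and 4.80 with ID8, against 4.55, 4.49 and 4.48 with DMSO. The differences were -0.24 ± 0.122 and 0.35 ± 0.122 and were not called (adjusted p = 0.65 and 0.62). Averaged over fractions the ID8 effect was -0.52 ± 0.0861 in SUM159 (adjusted p = 0.00678, and 0.0515 to 0.167 without experiment 2, 3 or 4) and 0.59 ± 0.0861 in T47D (adjusted p = 0.00525, and 0.152 and 0.154 without experiment 5 or 6). The effect of ID8 did not differ between fractions past the threshold in either line (-0.55 ± 0.172 in SUM159, adjusted p = 0.567, and 0.47 ± 0.172 in T47D, adjusted p = 0.761). Between the fractions with ID8, FSTL1 was higher in T47D Aldefluor+ cells by 0.84 ± 0.122 (1.79-fold, adjusted p = 0.00386, lost without experiment 5 or 6 at adjusted p = 0.0655 and 0.131). In SUM159 with ID8 the fraction difference was -0.24 ± 0.122. These differed by -1.08 ± 0.172 (adjusted p = 0.0122), which made FSTL1 1 of 9 members called there, against 0.237% of all genes, and this call was lost without any of experiments 2 to 6 (adjusted p = 0.0768 to 0.138). Averaged over treatments FSTL1 was higher in T47D Aldefluor+ cells by 0.60 ± 0.0861 (adjusted p = 0.00161, and 0.0508 without experiment 6).

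CCN4, a Wnt-induced matricellular protein, was lower in Aldefluor+ cells of SUM159. With ID8 it had 1.86, 1.43 and 1.99 in Aldefluor+ cells, against 3.63, 3.78 and 3.56 in Aldefluor- cells. With DMSO it had 2.54, 2.56 and 2.09 in Aldefluor+ cells, against 3.22, 3.08 and 3.36 in Aldefluor- cells. No Aldefluor+ array of the line reached the lowest Aldefluor- array. The difference was -1.90 ± 0.284 with ID8 (3.73-fold lower, adjusted p = 0.0132), and -0.82 ± 0.284 with DMSO, which was not called (adjusted p = 0.469). Averaged over treatments it was -1.36 ± 0.201 (2.57-fold lower, adjusted p = 0.00796). The mean of ID8 Aldefluor+ cells lay below 2, so these folds too depend on the probe set's background. Without any of experiments 2, 3 and 4 these calls were lost, with adjusted p between 0.127 and 0.311 for the ID8-treated cells and between 0.126 and 0.156 for the average.

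Along SUM159 the 4 groups of CCN4 did not overlap with their neighbours, in the order ID8 Aldefluor- (3.66), DMSO Aldefluor- (3.22), DMSO Aldefluor+ (2.40) and ID8 Aldefluor+ (1.76). ID8 shifted it by -0.64 ± 0.284 in Aldefluor+ cells and by 0.44 ± 0.284 in Aldefluor- cells, neither called (adjusted p = 0.454 and 0.759). In T47D, CCN4 had 2.75, 2.37 and 2.88 in ID8 Aldefluor+ cells, 3.00, 2.54 and 2.27 in ID8 Aldefluor- cells, 2.25, 1.86 and 2.59 in DMSO Aldefluor+ cells and 1.91, 3.00 and 2.00 in DMSO Aldefluor- cells, and all 4 groups overlapped. The fraction difference with ID8 was lower in SUM159 than in T47D by 1.96 on the log2 scale (log2 difference -1.96 ± 0.402), close to the threshold but not called (adjusted p = 0.0572). It was called without the block (adjusted p = 0.00683), with a trended, robust prior (0.0289), among genes with a mean of at least 2 (0.0327) and without experiment 6 (0.0381). Among 6 fibroblast markers, COL1A1, a collagen I chain, fell in SUM159 Aldefluor+ cells averaged over treatments, by 0.69 on the log2 scale (adjusted p = 0.0448, and 0.0996 without the array of narrowest spread). No other fibroblast marker was called there, and 5 of the 6 had means below 2. The list median was -0.09, with 1 gene above 0. That gene was COL1A2, the other collagen I chain, at 0.05 ± 0.112 with ID8 and 0.15 ± 0.112 with DMSO. The mean of those markers was 1.11 to 1.42 in SUM159 ID8 Aldefluor+ arrays, against 1.38 to 1.51 in ID8 Aldefluor- arrays, and 1.32 to 1.41 in DMSO Aldefluor+ arrays, against 1.42 to 1.50 in DMSO Aldefluor- arrays. Their part in the CCN4 result was not tested.

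The other 5 members were called in none of the 18 comparisons. TNC, the hub-forming glycoprotein tenascin-C, showed small and even shifts with ID8 in SUM159. In Aldefluor+ cells it had 4.95, 5.09 and 5.11 with ID8, against 4.79, 4.86 and 4.90 with DMSO, and in Aldefluor- cells 5.01, 5.12 and 5.05, against 4.75, 4.92 and 4.95. All 6 ID8 arrays stood at or above the highest DMSO array of the line at this precision, with differences of 0.20 ± 0.0982 and 0.19 ± 0.0982 (adjusted p = 0.498 and 0.679). In T47D its differences with ID8 were 0.11 and 0.06. In the 4 fraction pairs no TNC difference exceeded 0.05 in size.

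FN1, the structural glycoprotein fibronectin, varied little. Its group means in SUM159 ran between 7.35 and 7.50, with group SDs of 0.00633 to 0.0324, and in T47D between 6.52 and 6.75. The widest FN1 difference between paired groups was -0.23 ± 0.0914, for Aldefluor+ against Aldefluor- cells of T47D with DMSO (adjusted p = 0.447). SPARC, a collagen-binding glycoprotein also called osteonectin, had overlapping groups in each of the 8 pairs, with group means of 4.16 to 4.43 in SUM159 and 3.63 to 4.06 in T47D and group SDs up to 0.533. Its fraction difference in T47D was 0.35 ± 0.266 with ID8 and 0.39 ± 0.266 with DMSO (adjusted p = 0.782 and 0.747).

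THBS2, the paralogue of THBS1, had a low signal. In SUM159 Aldefluor- cells it had 1.96, 2.01 and 1.73 with ID8, against 1.18, 1.22 and 1.54 with DMSO, without overlap but not called (0.59 ± 0.309, adjusted p = 0.677). In T47D its arrays ranged from 0.95 to 2.25, and SDs reached 0.70 in DMSO Aldefluor+ cells. POSTN, periostin, had arrays of 0.91 to 2.06 in SUM159 and 0.93 to 1.42 in T47D, and its largest difference was 0.44 ± 0.26 with ID8 in SUM159 Aldefluor- cells (adjusted p = 0.721). At these signals a change of either gene was not detectable with 3 arrays per group unless it exceeded that spread.

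**Figure D4:**
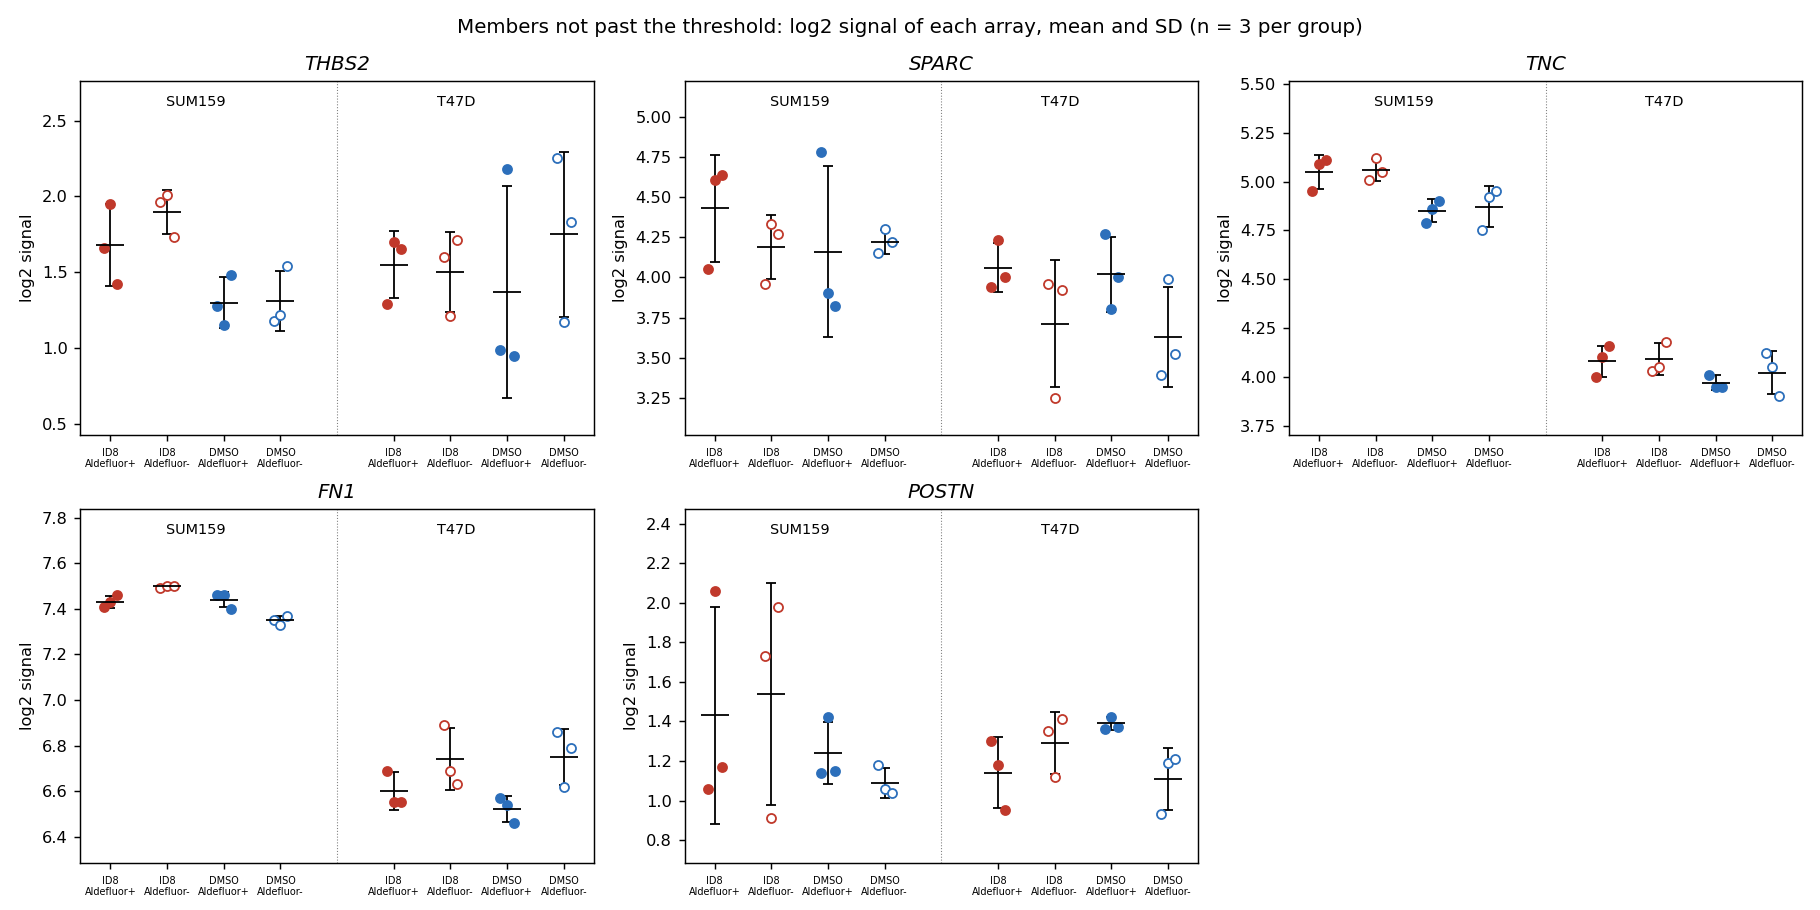
Log2 signal of THBS2, SPARC, TNC, FN1 and POSTN on each array, with SUM159 left and T47D right of the dotted line. Points are arrays (red for ID8, blue for DMSO, filled for Aldefluor+, open for Aldefluor-), and bars give mean and SD (n = 3). TNC and FN1 differ more between the lines (4.96 against 4.04, and 7.43 against 6.65) than among the groups of a line, while THBS2 and POSTN stay mostly below 2.

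Other matricellular and short matrix glycoproteins were taken from a list of 32 genes, of which 31 were measured. In each of the 8 pairs of groups limma called 0 of these 31, against 0.0179% to 0.375% of all genes, with list medians between -0.09 and 0.12. CCN2 and CCN1, CCN-family proteins induced by YAP signalling, were the 2 highest of the list with ID8 in SUM159 Aldefluor- cells but did not pass. CCN2 differed by 0.76 ± 0.342 there, with overlapping arrays (adjusted p = 0.603), and CCN1 by 0.49 ± 0.166 (adjusted p = 0.374). Between the SUM159 fractions with ID8, CCN1 was among the 2 lowest, at -0.45 ± 0.166 (adjusted p = 0.495). FSTL3, a secreted follistatin-like antagonist of activin, fell with ID8 in T47D averaged over fractions by 0.64 on the log2 scale (adjusted p = 0.0393), the one gene of the list called in any of the 18 comparisons. FSTL3 had 3.29, 3.55 and 3.30 in T47D Aldefluor- cells with ID8, against 4.38, 4.63 and 4.21 with DMSO. This FSTL3 call was lost without experiment 5, 6 or 7 (adjusted p = 0.135 to 0.34).

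Of 21 receptors for these proteins, 1 was called with ID8 in SUM159 Aldefluor- cells (0.277% of all genes) and 0 in the other 7 pairs (0.0179% to 0.375%), with list medians between -0.07 and 0.05. ITGB3, the beta-3 chain of the integrin that EDIL3 binds, had 4.30, 4.50 and 4.45 in SUM159 Aldefluor- cells with ID8, against 3.04, 3.17 and 2.84 with DMSO (1.40 ± 0.181, adjusted p = 0.00181, and 0.0964 without experiment 4). ITGAV, the alpha-v chain of the same integrin, differed by 0.28 ± 0.111 there (adjusted p = 0.516). In SUM159 Aldefluor+ cells ITGB3 had 3.91, 3.48 and 3.96 with ID8, against 3.12, 3.18 and 3.05 with DMSO (0.67 ± 0.181, adjusted p = 0.16). SDC1, the heparan sulfate proteoglycan syndecan-1, was higher in SUM159 Aldefluor+ cells averaged over treatments by 0.62 ± 0.0996 (adjusted p = 0.0127, and 0.144 to 0.245 without experiment 2, 3 or 4). The THBS1 receptor CD47 differed by 0.41 ± 0.135 with ID8 in T47D Aldefluor- cells (adjusted p = 0.573), and CD36 was among the highest of the list between SUM159 fractions with ID8, at 0.18 ± 0.196 (adjusted p = 0.913).

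Of 14 measured genes of TGF-beta activation and response, 2 rose with ID8 in SUM159 Aldefluor- cells, where 0.277% of all genes were called, with a list median of 0.12 against -0.0106 over all genes. TGFB2, the ligand TGF-beta 2, had 6.58, 6.66 and 6.79 with ID8, against 4.55, 4.52 and 4.24 with DMSO (2.24 ± 0.244, 4.73-fold, adjusted p = 0.00034, and 0.0518 without experiment 4). TAGLN, the actin-binding TGF-beta target transgelin, had 2.54, 3.34 and 3.04 with ID8, against 1.66, 1.46 and 1.64 with DMSO (1.39 ± 0.237, adjusted p = 0.0186, and 0.366 and 0.203 without experiment 3 or 4). None of this list was called in the other 3 ID8 pairs, against 0.0179% to 0.375% of all genes. Averaged over fractions, TGFB2 was higher with ID8 in SUM159 (1.65 ± 0.173, adjusted p = 0.000151). It was also higher with ID8 in T47D averaged over fractions (1.06 ± 0.173, adjusted p = 0.0097, and 0.128 and 0.186 without experiment 6 or 7). Between fractions, TGFB2 was lower in SUM159 Aldefluor+ cells with ID8 (-1.38 ± 0.244, adjusted p = 0.0437) and higher in T47D Aldefluor+ cells with ID8 (1.57 ± 0.244, adjusted p = 0.00534) and with DMSO (1.46 ± 0.244, adjusted p = 0.018). Over all genes 0.201%, 0.366% and 0.152% were called in these pairs. The SUM159 call was lost without experiment 2, 3 or 4 (adjusted p = 0.266 to 0.362) and without the array of narrowest spread (0.05), and the T47D calls without experiment 7 (adjusted p = 0.141 with ID8 and 0.304 with DMSO), the DMSO one also without experiment 6 (0.162). Averaged over treatments, the TGFB2 fraction difference in T47D was 1.52 ± 0.173 (adjusted p = 0.000168). With ID8 the TGFB2 fraction difference was lower in SUM159 than in T47D (-2.95 ± 0.345, adjusted p = 0.000654). EDIL3 also ran lower in SUM159 Aldefluor+ cells with ID8. In T47D its fraction differences ran the same way, at -0.45 with ID8 and -0.27 with DMSO, and were not called. With ID8 the EDIL3 fraction difference did not differ between the lines past the threshold (-0.54 ± 0.261, adjusted p = 0.556). Beside the SUM159 ID8 results, the mean of 10 SUM159 markers was 4.54 to 4.60 and 4.66 to 4.70 in ID8 Aldefluor+ and Aldefluor- arrays, against 4.84 to 4.87 and 4.81 to 4.88 with DMSO, and AXL and EGFR fell averaged over fractions (-0.62 ± 0.119 and -0.52 ± 0.0784, adjusted p = 0.0193 and 0.00343). Without experiment 3 or 4 neither gene was called, nor AXL without experiment 2. EGFR was also higher in T47D Aldefluor+ cells averaged over treatments (0.46 ± 0.0784, adjusted p = 0.00778), where FSTL1 and THBS1 were called. Its ID8 effect in Aldefluor+ cells differed by -0.83 ± 0.157 between SUM159 and T47D (adjusted p = 0.0342), where FSTL1 was called. These EGFR calls were lost without any experiment they use (adjusted p = 0.0987 to 0.12, and 0.0751 to 0.167). The part of these markers in the results was not tested.

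**Figure D5:**
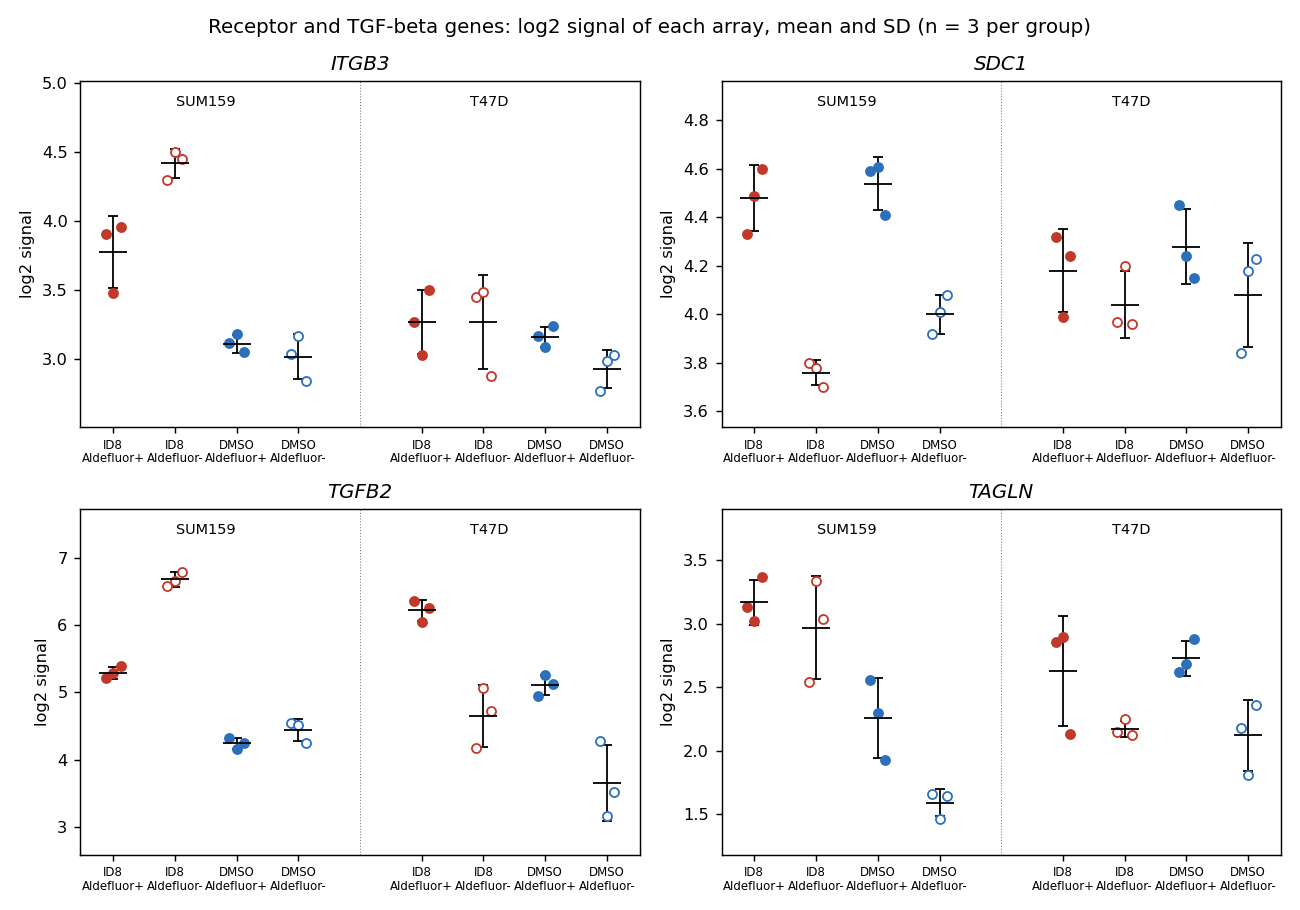
Log2 signal of the receptors ITGB3 and SDC1 and of TGFB2 and TAGLN on each array, with SUM159 left and T47D right of the dotted line. Points are arrays (red for ID8, blue for DMSO, filled for Aldefluor+, open for Aldefluor-), and bars give mean and SD (n = 3). ITGB3 and TGFB2 are highest in SUM159 ID8 Aldefluor- cells, at 4.42 and 6.68.

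Patterns like those of the called members were sought among 11411 other genes with a mean of at least 2, by Pearson correlation over the 24 arrays after each line's mean was taken away. The arrays share treatment, fraction and experiment, so these values are descriptions. EDIL3 was most like ADAMTS9, a secreted metalloproteinase (r = 0.889), ITGB3 (0.869) and SULT1E1, oestrogen sulfotransferase (0.849). Within SUM159 these were 0.956, 0.977 and 0.918, and within T47D 0.229, -0.0648 and -0.109 (n = 12 arrays each), so the likeness was seen in SUM159. EDIL3 varied less in T47D, with an SD of 0.26 over its arrays against 0.932 in SUM159, so a likeness could hardly show there. THBS1 was most like VCAN, the matrix proteoglycan versican (0.842), SFXN2, a mitochondrial carrier (0.824), and PLXDC2, a membrane protein (0.811), with values within each line from 0.785 to 0.884. Among the 3 genes most like FSTL1 were MED13L, a Mediator subunit (0.906), and WDR26, a ubiquitin ligase subunit (0.894), with 0.881 and 0.809 within SUM159 and 0.955 and 0.941 within T47D. CCN4 was most like SPANXC (0.835), LURAP1L (0.821) and RELN, the matrix glycoprotein reelin (0.811), with 0.886 to 0.944 within SUM159 and 0.199 to 0.626 within T47D.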

How the data were processed

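Array values of 24 samples were used as deposited. The authors summarised probes by robust multiarray average (RMA), which gives log2 values, and removed batch effects with ComBat, per the labels' design text and the submitters' processing notes. Versions, batches and covariates were not stated there. Per the labels, total RNA was amplified before hybridisation to an Affymetrix Human Gene ST plate.

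Of 53617 probe sets, 23871 named 1 gene, 1842 several and 27904 none in the platform table. Symbols were updated through the RefSeq gene table for 22569, and the probe set with the highest mean was kept for the 632 genes with several, which left 22395 genes, 49.0% of them with a mean below 2. The fit was limma 3.58.1 in R 4.3.3 with a mean for each of 8 groups and experiments blocked by line (12 residual degrees of freedom), adjusted by the Benjamini-Hochberg method at a threshold of 0.05, and tested on simulated data. Arrays are paired by experiment number, which the labels give. Deviations from group means correlated between -0.408 and -0.266 for 36 pairs of arrays of one experiment, and between 0.0986 and 0.244 for 72 other pairs. Experiment means differed from their line's mean by an SD over genes of at most 0.0226. Deviations within an experiment therefore nearly cancel, so the signs of these correlations follow from the adjustment and are no check of the pairing.

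The members and gene lists were chosen with earlier results of these data known. Named were the 9 members, list genes called in a comparison or among the 2 highest or lowest of their list, and for each called member the 3 genes of most similar pattern, of which 1 is not reported here. Alternatives varied the block, the lines fitted, the filter, the probe sets, the centring, the prior and the experiments. Promoter windows are from RefSeq.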

Additional observations from a re-analysis of the deposited data

Results flagged for a closer look

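For 5 values the effect of ID8 or the fraction difference differed between the lines by limma's test of the difference itself, SUM159 minus T47D on the log2 scale. THBS1 differed by 1.89 ± 0.206 for ID8 in Aldefluor- cells (adjusted p = 0.000505), with effects of 1.12 in SUM159 and -0.77 in T47D. THBS1 also differed by 1.73 ± 0.206 for the fraction difference with DMSO (adjusted p = 0.00214), with 0.77 in SUM159 and -0.95 in T47D. EDIL3 differed by 2.16 ± 0.261 for ID8 in Aldefluor- cells (adjusted p = 0.00162), with 2.16 in SUM159 and means of 2.45 with ID8 and 2.44 with DMSO in T47D. FSTL1 differed by -1.62 ± 0.172 for ID8 in Aldefluor+ cells (adjusted p = 0.00108), with -0.80 in SUM159 and 0.82 in T47D. FSTL1 also differed by -1.08 ± 0.172 for the fraction difference with ID8 (adjusted p = 0.0122), with -0.24 in SUM159 and 0.84 in T47D. The genes had been listed with such results known, and the tests use values already adjusted for batch.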

How the results depend on the processing

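Each of the 21 called member values, out of 162 tested, kept its direction under the 14 alternatives that apply to it. All 21 kept their call with the arrays centred on their medians, with the mean over a gene's probe sets, with genes of a mean of at least 2, with a trended, robust prior and without the replicate block. Most of these alternatives could hardly remove a call. Each member had 1 probe set, so the mean over probe sets left its values unchanged. Array medians lay between 1.516 and 1.569 before centring. The filter kept every called member and left fewer genes to adjust over, and p-values without the block are too small. Fitting 1 line alone lost 8 of 16 calls, and testing all probe sets or leaving out the array of narrowest spread lost 3 of 21 each. Leaving out experiment 2, 3, 4, 5, 6 or 7 lost 8, 9, 9, 6, 6 and 3 calls, of 15 for each SUM159 experiment and 11 for each T47D experiment. Fewer arrays were then fitted and the log2 differences moved as well, and the part of each in the lost calls was not tested.

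Counts of members called moved as follows. Without the replicate block and with a trended, robust prior, they became 1 for the SUM159 fractions with DMSO, for ID8 in T47D Aldefluor- cells and for the ID8 effect between SUM159 fractions, and 2 for ID8 in T47D averaged over fractions, for the ID8 effect between lines in Aldefluor+ cells and for the fraction difference between lines with ID8. The last 3 also became 2 with genes of a mean of at least 2. Over all genes those 6 counts were 11, 9, 5, 226, 232 and 96 with the trended prior, against 5, 4, 1, 113, 74 and 53 in the fit reported, and the last 3 were 207, 198 and 98 with the filter. Without the block they were 88, 35, 36, 562, 582 and 289. Each line alone gave 0 for ID8 in SUM159 and T47D Aldefluor+ cells, for both T47D fraction pairs and for ID8 in T47D averaged over fractions, and 1 for the SUM159 fractions with ID8. Over all genes these counts fell too, in the same order to 17, 40, 24 (DMSO), 65 (ID8), 60 and 16, against 54, 84, 34, 82, 113 and 45. All probe sets gave 1 for ID8 in SUM159 Aldefluor+ cells and for the SUM159 fractions with ID8, where 35 and 21 probe sets were called. ID8 in SUM159 averaged over fractions had 2 members called with each line alone and with all probe sets, against 3. There 106 genes and 145 probe sets were called, against 154 genes in the fit reported. Leaving out 1 experiment or the array of narrowest spread gave 1 to 2 for ID8 in SUM159 Aldefluor- cells and averaged over fractions, for the T47D fractions averaged over treatments and for the ID8 effect between lines in Aldefluor- cells. It gave 0 to 1 for ID8 in SUM159 and T47D Aldefluor+ cells, for the SUM159 fractions with ID8 and averaged, for both T47D fraction pairs, for ID8 in T47D averaged over fractions and for the fraction difference between lines with ID8. Over all genes, leaving out 1 experiment gave 8 to 21, 45 to 53, 48 to 68 and 5 to 13 for the first 4 of these comparisons, against 62, 154, 196 and 15. For the others, in order, it gave 3 to 13, 1 to 4, 5 to 6, 3 to 5, 5 to 12 (DMSO), 14 to 28 (ID8), 4 to 18 and 18 to 25. The fit reported had 54, 84, 45, 49, 34, 82, 113 and 53 there. Without the array of narrowest spread all these were 60, 158, 209, 16, 37, 87, 21, 28, 44, 85, 114 and 55.

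The replicate block decides how many genes pass: without it the counts over all genes were 397 for ID8 in SUM159 Aldefluor+ cells (54 with it), 225 in SUM159 Aldefluor- cells (62), 530 in T47D Aldefluor+ cells (84) and 35 in T47D Aldefluor- cells (4), and between fractions 88 in SUM159 with DMSO (5), 208 with ID8 (45), 242 in T47D with DMSO (34) and 325 with ID8 (82). The deposited values had already been adjusted for batch, per the labels. The fit without the block therefore counts degrees of freedom that are gone, and its p-values are too small. Low adjusted signal limits THBS2 and POSTN in all groups, EDIL3 in both SUM159 DMSO groups and T47D ID8 Aldefluor+ cells, and CCN4 in SUM159 ID8 Aldefluor+ cells, whose means lay below 2. Line differences were small after the adjustment, so a mean above or below 2 does not show whether a line expresses the gene.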
